A study of Homo sapiens with 6 samples.

Results

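Pericentromeric peaks of UCHL1, a neuronal ubiquitin hydrolase that binds and processes ubiquitin, were examined in 3 chromatin immunoprecipitation sequencing (ChIP-seq) peak lists. A peak was counted as pericentromeric when it lay on chromosomes 1 to 22 with its midpoint within 3 Mb of either edge of a run of unresolved bases (N) of at least 2.9 Mb in the hg19 genome, the runs that stand for centromeres and neighbouring heterochromatin. By this rule 668 peaks were chosen from 6813, of which 5873 were autosomal. The lists contributed 143 of 3086, 123 of 1531 and 402 of 2196 peaks.

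The first list came from DU 145 cells, a human prostate cancer line derived from a brain metastasis, cross-linked with 1% formaldehyde, and its chromatin was sheared by sonication. The second came from DU 145 cells treated with 1 mM DSP, a protein-to-protein cross-linker, and then formaldehyde, with chromatin cut to mononucleosomes by micrococcal nuclease. The third came from HEK293T, a human embryonic kidney line that carries the SV40 T antigen, and is labelled with DSP and formaldehyde too. The nuclease step for HEK293T comes from the study's methods, and another passage of the study places these cells with those treated with formaldehyde alone; the label was followed. These are called the formaldehyde, dual and HEK293T lists. For the dual protocol the labels give 1% formaldehyde and the study's methods give a lower concentration. All 3 used the same mouse monoclonal UCHL1 antibody, and each list rests on 1 ChIP library called against its own input DNA. With no replicate library there is no measure of library-to-library error and no test between lists. Cross-linking, fragmentation and library differ together between the formaldehyde and dual lists, and cell line and library differ together between the dual and HEK293T lists, so their parts cannot be told apart.

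Human centromeres are built on alpha satellite, a tandem repeat whose unit is near the length of DNA wrapped by a nucleosome, and some of its units hold the box bound by the centromere protein CENP-B. The pericentromeric heterochromatin beside it holds other satellites, among them the classical satellites II and III, which are arrays of diverged copies of a 5-base unit, ATTCC, or GGAAT when read from the other strand. A genome assembly holds only part of these arrays, and the cells hold many more copies than it shows.

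Sequences of 3 kinds are shown here, on the forward strand of hg19. The first 3 are the 120 bases around the summit of dual peaks with a 5-base period that a HEK293T peak overlapped. Of these, they are the one with most dual tags (sequenced reads counted in the peak), the one with the highest dual fold enrichment over input and the one with the highest MACS score on chromosome 21, and capitals mark each ATTCC or GGAAT.
Chr4, chr4:49111482-49111601: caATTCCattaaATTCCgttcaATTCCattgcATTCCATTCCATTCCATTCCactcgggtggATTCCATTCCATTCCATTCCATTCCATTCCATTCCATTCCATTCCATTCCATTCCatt
Chr10, chr10:38805527-38805646: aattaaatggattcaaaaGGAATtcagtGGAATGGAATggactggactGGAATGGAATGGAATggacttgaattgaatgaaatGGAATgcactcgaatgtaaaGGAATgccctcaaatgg
Chr21, chr21:10087223-10087342: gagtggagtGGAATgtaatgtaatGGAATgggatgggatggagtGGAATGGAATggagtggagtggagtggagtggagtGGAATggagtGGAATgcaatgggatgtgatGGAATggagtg
The chr4 stretch held 18 copies of ATTCC over 75% of its bases, and no GGAAT. The chr10 and chr21 stretches held 8 and 7 copies of GGAAT, and many of the bases between them were diverged copies.

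The second set is alpha-satellite-like. These are successive stretches, each as long as 1 alpha satellite unit, at the summit of the HEK293T peak at chr18:18516522-18520356, a site shared with the dual list, with capitals at each base that is the same in both.
Chr18 first repeat, chr18:18519145-18519315: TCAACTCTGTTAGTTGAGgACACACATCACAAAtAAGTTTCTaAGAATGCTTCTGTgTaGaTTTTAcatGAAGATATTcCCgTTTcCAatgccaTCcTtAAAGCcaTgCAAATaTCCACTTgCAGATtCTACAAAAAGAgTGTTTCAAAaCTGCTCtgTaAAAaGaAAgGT
Chr18 second repeat, chr18:18519316-18519486: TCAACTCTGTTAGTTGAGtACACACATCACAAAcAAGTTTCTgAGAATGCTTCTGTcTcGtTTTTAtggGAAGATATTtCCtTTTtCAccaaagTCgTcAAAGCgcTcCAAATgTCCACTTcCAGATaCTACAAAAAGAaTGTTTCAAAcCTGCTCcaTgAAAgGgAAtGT
The stretches were the same at 137 of their positions (80.1%).

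The third set is of short peaks without a repeat period. These are whole dual peaks that were also in the formaldehyde list and among the 5 dual members with the highest fold enrichment; capitals would mark ATTCC or GGAAT, which none of them held.
Chr1, chr1:119552867-119552990: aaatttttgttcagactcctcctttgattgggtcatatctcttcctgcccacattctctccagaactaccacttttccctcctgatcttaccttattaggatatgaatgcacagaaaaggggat
Chr12, chr12:32096870-32096921: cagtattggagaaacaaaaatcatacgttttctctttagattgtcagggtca
Chr1, chr1:120176747-120176800: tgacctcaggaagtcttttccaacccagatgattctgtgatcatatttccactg
Chr11, chr11:55277554-55277615: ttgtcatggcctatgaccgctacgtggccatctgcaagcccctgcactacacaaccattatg
The 50 bases at each of these 4 summits occurred once in hg19.

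The windows around the 23 gaps held 112988212 of 2684573005 readable autosomal bases, or 4.21%. Pericentromeric peaks made up 5.56% of the autosomal peaks of the formaldehyde list (95% Wilson interval 4.74 to 6.51%), 9.65% of the dual list (8.15 to 11.4%) and 19.9% of the HEK293T list (18.2 to 21.6%). Set against the share of readable bases, these shares were 1.32, 2.29 and 4.72 times as large. The HEK293T list held 3.56 pericentromeric peaks per Mb of readable sequence and 0.631 elsewhere on the autosomes. The dual list held 1.09 and 0.448 per Mb, and the formaldehyde list 1.27 and 0.945. The intervals cover counting error only, and peaks of 1 array are not independent of each other.

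The rise in density ran towards the gap in the dual and HEK293T lists. The HEK293T list held 27.1 peaks per Mb in the 100 kb next to a gap edge, 10.7 from 100 to 500 kb, 2.91 from 500 to 1000 kb, 1.03 from 1000 to 2000 kb and 0.917 beyond. The dual list held 4.15, 2.54, 1.02, 0.544 and 0.733 per Mb over the same bins. The formaldehyde list stayed between 1.04 and 1.71 per Mb in every bin. In the first 100 kb lay 111 HEK293T (27.6%), 17 dual (13.8%) and 7 formaldehyde members (4.90%), and the median distances were 371, 559 and 1560 kb. The member nearest to a gap was a HEK293T peak 0.115 kb from it, chr10:39154706-39154936, with 48 tags and a fold enrichment of 5.92. The farthest members of the lists lay at 2983.7, 2898.5 and 2994.9 kb, with 7, 11 and 8 tags and fold enrichments of 29.25, 14.03 and 16.57. The first peaks beyond the limit lay at 3.05, 3.07 and 3.03 Mb, with 6, 11 and 8 tags and fold enrichments of 37.22, 30.59 and 14.36.

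**Figure D1:**
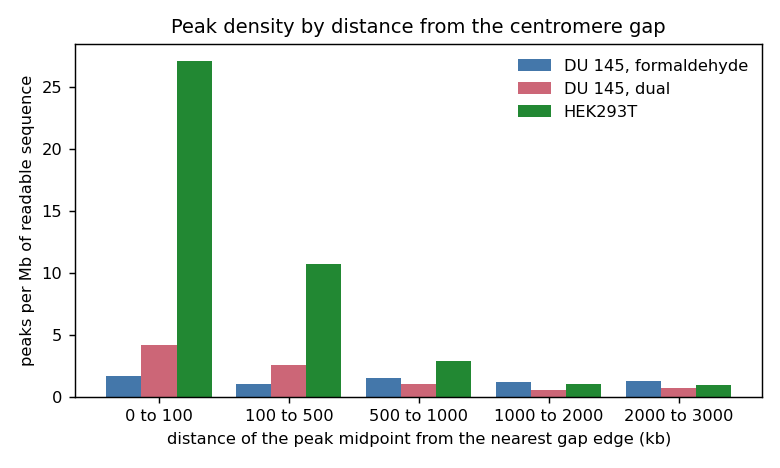
Pericentromeric UCHL1 peaks per Mb of readable hg19 sequence (y axis) by distance of the peak midpoint from the nearest gap edge in kb (x axis), with 1 bar for each list and bin. The HEK293T bars fall from 27.1 to 0.917 peaks per Mb and the dual bars from 4.15 to 0.733, while the formaldehyde bars lie between 1.04 and 1.71.

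The chromosomes differed widely. In the HEK293T list chromosome 10 alone held 92 members, out of 111 peaks that the list had there, and chromosomes 4, 21, 7, 2 and 20 followed with 60, 52, 24, 23 and 20. Chromosomes 13 and 22 held none. In the dual list chromosomes 10, 21, 4 and 16 led with 25, 20, 14 and 10, while chromosomes 5, 7, 9 and 13 held none. The formaldehyde list had members on all 22 autosomes, most of them on chromosomes 20, 8, 18 and 1 with 15, 13, 11 and 10. On chromosomes 4, 10 and 21, which led both other lists, it had 4, 3 and 9.

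**Figure D2:**
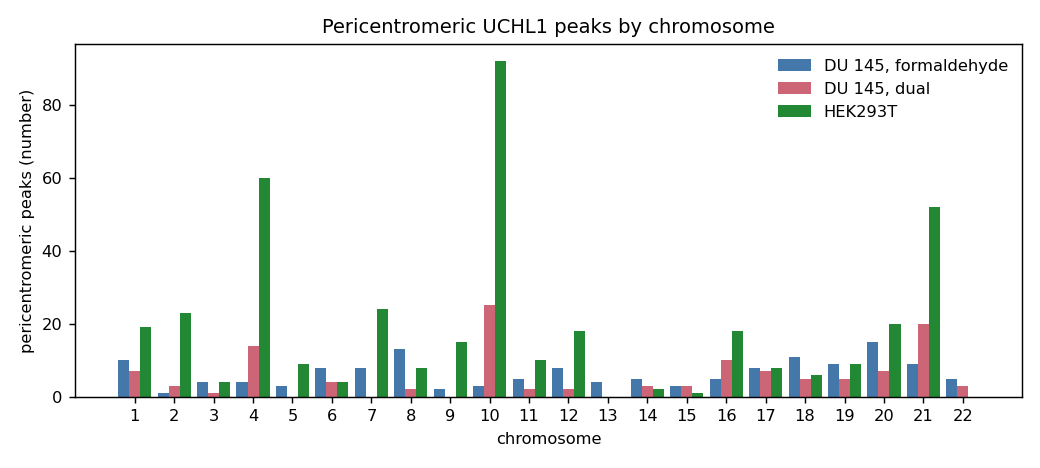
Number of pericentromeric peaks (y axis) on each autosome (x axis) in the 3 lists. HEK293T reaches 92, 60 and 52 on chromosomes 10, 4 and 21, the dual list is highest on the same chromosomes with 25, 14 and 20, and the formaldehyde list is highest on chromosome 20 with 15.

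Most of that excess lay in a few short stretches. When members with no more than 100 kb between them were joined into blocks, 223 blocks resulted. The 9 fullest held 221 HEK293T members (55.0%), 51 dual members (41.5%) and 1 formaldehyde member (0.699%). The fullest, chr21:10765736-10857289, held 47 HEK293T and 11 dual peaks and the 1 formaldehyde peak. The block at chr4:49093250-49151955 held 33 HEK293T and 7 dual peaks, and that at chr4:49633241-49660115, which ends 0.314 kb from the gap, held 14 and 5.

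Chromosome 10 held 3 of these blocks, on both sides of its gap. Chr10:39076953-39154936 held 38 HEK293T and 2 dual peaks, chr10:38772487-38874446 held 26 and 11, and chr10:42791044-42816617 held 21 and 4. The remaining 3 were chr16:33818400-33964215 (13 and 7 peaks), chr20:29804326-29831255 (15 and 2) and chr2:89855417-89880010 (14 and 2). Without the 9 blocks the pericentromeric share fell to 10.0% of the HEK293T and 5.89% of the dual list, and was 5.52% of the formaldehyde list.

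Arrays of the ATTCC pentamer set the dual and HEK293T lists apart from the formaldehyde list. A summit was counted as having a 5-base period when, in the 2000 bases around it, at least 50% of bases equalled the base 5 positions on. This held for 228 HEK293T members (56.7%, 51.8 to 61.5%), 51 dual members (41.5%, 33.1 to 50.3%) and 1 formaldehyde member (0.699%, 0.124 to 3.85%). Of all 2000-base tiles in the windows, 0.478% had this period, and of all autosomal tiles 0.0251%. Among the peaks outside the windows the shares were 0.555, 0.869 and 0.247%.

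The unit was the pentamer itself. In the 200 bases at the summit, the members with a 5-base period held a median of 17 copies of ATTCC or GGAAT in the HEK293T list, with up to 33, and of 19 in the dual list, with up to 30. The formaldehyde member with this period, chr22:18718968-18719027, held 0 copies and was 10.5% G or C. At least 5 copies were found at 236 HEK293T (58.7%), 55 dual (44.7%) and 0 formaldehyde summits (0%, which allows up to 2.62% by the Wilson interval), against 0.675% of 200-base tiles in the windows.

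Read from the side of the genome, 270 tiles of 2000 bases in the windows, on 12 chromosomes, had a 5-base period. A HEK293T peak reached 184 of these (68.1%), a dual peak 63 (23.3%) and a formaldehyde peak 1 (0.370%). Of the 54338 tiles with neither this nor the alpha-length period described next, HEK293T peaks reached 0.221%, dual peaks 0.131% and formaldehyde peaks 0.254%. Chromosomes 10, 21 and 4 held 97, 48 and 45 of the 270 tiles. They were the chromosomes with most members in the dual and HEK293T lists. The wider HEK293T peaks, with a median length of 474 bases against 200 and 65, reach more tiles per peak.

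Alpha-satellite-like repeats were seen mostly in the HEK293T list. The strongest period was within a few bases of the length of 1 alpha satellite unit or of a pair of units, with at least 50% identity and no 5-base period, at 72 HEK293T members (17.9%, 14.5 to 22.0%), 7 formaldehyde members (4.90%, 2.39 to 9.76%) and 4 dual members (3.25%, 1.27 to 8.06%). Of the window tiles, 3.34% met this rule, so that the shares of the DU 145 lists lay near that of the windows. HEK293T peaks reached 85 of the 1885 such tiles (4.51%), and formaldehyde and dual peaks 7 each (0.371%).

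The CENP-B box was searched in the same 2000 bases on both strands, with its defining bases fixed and N for any base (NTTCGNNNNANNCGGGN). It was present at 45 HEK293T (11.2%), 4 dual (3.25%) and 3 formaldehyde members (2.10%), and in 0.846% of window tiles. A simpler rule, at least 60% identity at a shift of 1 unit length, gave 137 HEK293T, 28 dual and 2 formaldehyde members, but an array of a 5-base unit also matches itself at a shift of 170 bases, which lies in that range. With the windows of a 5-base period left out, that rule gave 23, 2 and 2.

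Telomeric hexamers, 2 or more copies in a row of CCCTAA or TTAGGG, were at a smaller share of members than of the other autosomal peaks. They were at 3 dual members (2.44%), 0 HEK293T and 0 formaldehyde members, and at 13.1, 2.96 and 3.13% of the other autosomal peaks. Of 200-base tiles in the windows 0.00850% held them, and of all autosomal tiles 0.00573%. The first dual member was chr4:47206490-47206543 in an intron of GABRB1, a GABA receptor subunit gene (fold enrichment 35.86, 9 tags). The others were the intergenic chr15:22520625-22520772 (27.16, 18 tags) and chr21:15915118-15915286 in an intron of SAMSN1, a lymphocyte adaptor gene (31.77, 12 tags).

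**Figure D3:**
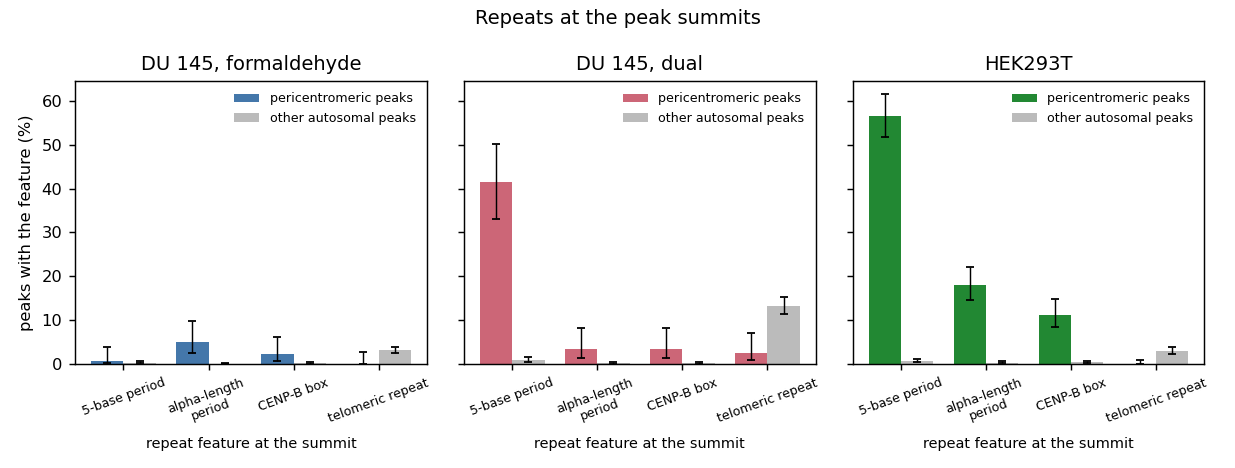
Share of peaks (y axis, %) whose summit had a 5-base period, an alpha-length strongest period (1 unit or a pair), a CENP-B box or a telomeric repeat, for pericentromeric peaks (coloured) and other autosomal peaks (grey) of each list, with 95% Wilson intervals as bars. The 5-base period stands at 56.7% of HEK293T and 41.5% of dual pericentromeric peaks against under 1% in the grey bars, while the telomeric repeat stands higher in the grey bars.

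Pericentromeric peaks of the dual and HEK293T lists were long and rich in tags, yet low in fold enrichment. The median HEK293T member was 474 bases long with 89.5 tags, against 121 bases and 10 tags for the other autosomal peaks of that list. The median dual member was 200 bases long with 29 tags, against 97 bases and 8 tags. In the formaldehyde list the medians were 65 bases and 7 tags, against 63 and 7. The median fold enrichment was 6.58 against 13.8 in HEK293T, 8.22 against 18.4 in the dual and 12.1 against 16.7 in the formaldehyde list.

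Tags crowded near the gaps in the dual and HEK293T lists. Pericentromeric peaks held 71.9% of all tags in the autosomal peaks of the HEK293T list on 50.3% of the covered bases, 55.1% on 34.6% in the dual list and 16.1% on 7.90% in the formaldehyde list. They were 10, 9 and 5 of the 10 autosomal peaks with most tags, and 47, 35 and 9 of the 50. In the formaldehyde list 4 neighbouring peaks on chromosome 8 held 2423 of the 3628 tags of its members. Without them its members held 5.98% of the tags on 5.70% of the covered bases and were 2 of the 10 peaks with most tags. Tags per 100 bases had medians of 19.2, 14.8 and 11.8 against 8.49, 8.85 and 11.1 elsewhere. Total reads per library are not given in the sources used here, so tags were not scaled between lists.

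Tags and fold enrichment ran in opposite directions across members, with Spearman correlations of -0.821 over 123 dual, -0.671 over 402 HEK293T and -0.325 over 143 formaldehyde members. They share 1 ChIP and 1 input library per list, so these are descriptions. Outside the windows the values were 0.364, -0.385 and -0.0821.

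The peak with most tags in the dual list, chr6:58776674-58780165, lay 1.75 kb from the gap and had 2511 tags at a fold enrichment of 2.04. In HEK293T it was chr8:46848879-46857750, an alpha-satellite-like stretch 14.4 kb from the gap, with 4810 tags at 3.78. The dual peak chr1:121484055-121485444, 0.685 kb from the gap, had 1540 tags at 2.12. Members with a 5-base period had median fold enrichments of 5.16 in the dual and 6.26 in the HEK293T list, with 88 and 118 tags, and those with the alpha-length period in HEK293T had 6.37 with 67 tags. Members with neither had 15.6 and 11.6, with 9 and 17 tags, near the peaks outside the windows.

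**Figure D4:**
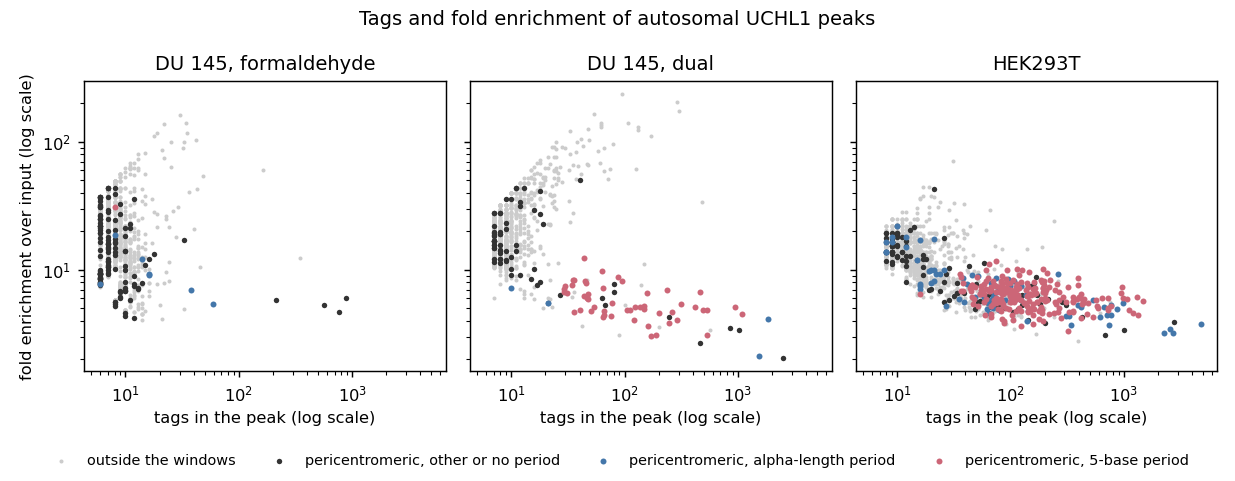
Fold enrichment over input (y axis, log scale) against tags in the peak (x axis, log scale) for each autosomal peak of the 3 lists, coloured by position and repeat period. In the dual panel the peaks outside the windows (grey) rise in fold enrichment with tags, while pericentromeric peaks run down to 2.04 at 2511 tags; the 5-base period peaks (red) gather between 3.04 and 12.45 in the dual and between 3.33 and 11.6 in the HEK293T panel.

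The false discovery rate (FDR) given by MACS, the peak caller, is the number of peaks found when ChIP and input are exchanged, relative to the number of ChIP peaks, at the same or a higher score. An FDR of 5% or less was given to 136 HEK293T members (33.8%), 75 dual members (61.0%) and 4 formaldehyde members (2.80%). Over all peaks of those lists, sex chromosomes included, it was given to 17.8, 68.3 and 1.91%. In HEK293T the members with a 5-base period passed in 45.6% and those with the alpha-length period in 23.6%.

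The HEK293T FDR did not follow the score at its top. None of the 10 members with the highest scores passed, and 2 of the 10 other autosomal peaks with the highest scores did. The highest, chr4:49654102-49658194, ranked 4 in the list with 1298 tags, a score of 617.04 and an FDR of 25%, and chr21:10084922-10087982 ranked 6 with a score of 473.08 and an FDR of 16.67%. Rank times FDR was 1 peak at each of these, which stands for 1 exchanged peak with the same or a higher score. In the dual list all 10 top members passed, and in the formaldehyde list 4 of 10. Of the 10 top other autosomal peaks, all passed in each of these lists.

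Of the 4 formaldehyde members that passed, 3 were among 4 neighbouring peaks at chr8:43092743-43097436. These 4 neighbours held 560, 213, 771 and 879 tags at fold enrichments of 5.32, 5.8, 4.72 and 6.02, and the FDR of the third was 10.96%. They lay 742 to 746 kb from the gap on a repeat whose strongest period was 42 bases, with 54.3 to 76.2% identity. No dual or HEK293T peak overlapped them. The next formaldehyde member by tags, chr21:10765736-10766094, had 59.

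Near the gaps, the dual and HEK293T lists shared their sites mostly in the pentamer arrays. Peaks were counted as shared when the midpoint of either lay in the other. Of the 123 dual members, 40 (32.5%, 24.9 to 41.2%) were overlapped by a HEK293T peak, against 7.58% over all dual peaks and 5.30% of the autosomal peaks outside the windows. Seen from HEK293T, 41 members (10.2%, 7.61 to 13.5%) were overlapped by a dual peak, against 5.60% over all HEK293T peaks. Among those with a 5-base period the dual share was 34 of 51 (66.7%) and the HEK293T share with any other list 36 of 228 (15.8%). For comparison, HEK293T peaks reached 68.1% of all window tiles with this period. Without the 9 fullest blocks the share of dual members in any other list went from 35.8 to 16.7%, and that of HEK293T members from 10.7 to 5.52%.

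The formaldehyde list shared few peaks, near the gaps and elsewhere. Any other list overlapped 5.59% of its members (2.86 to 10.7%) and 6.79% of its other autosomal peaks. A dual peak overlapped 6 of its 143 members (4.20%), against 6.38% over the whole list, and a HEK293T peak 4 (2.80%), against 2.14%. Of the dual members 6 were overlapped by a formaldehyde peak (4.88%, 2.25 to 10.2%), against 12.4% of all dual peaks and 13.5% of the autosomal ones elsewhere. Of the HEK293T members it was 4 (0.995%), against 3.05%. None of the 8 shared formaldehyde members had a 5-base period, which 1 of all 143 formaldehyde members had.

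At the 40 dual members with a HEK293T partner, tags were higher in HEK293T at 34, with medians of 122 in the dual and 190 in the HEK293T list and a median ratio of 1.76. The HEK293T peaks were also longer at 30 of these sites, with medians of 530 and 874 bases and a median length ratio of 1.52, against 0.957 outside the windows. At the 61 shared sites outside the windows the order was the other way, with 35 and 16, and tags were higher in HEK293T at 3. The median ratio of HEK293T to dual fold enrichment was 1.11 near the gaps (range 0.267 to 1.71) and 0.391 outside (0.0828 to 1.79). Fold enrichment was higher in HEK293T at 28 of 40 sites near the gaps and at 10 of 61 outside. For example, the chr4 array at chr4:49646015-49647353 had 236 tags at 6.98 in the dual list and 950 at 6.65 in HEK293T. The chr10 array at chr10:38805386-38805634 had 44 at 12.45 and 61 at 9.88, and the chr21 array at chr21:10085220-10087354 had 466 at 6.66 and 958 at 7.35. The alpha-satellite-like site on chromosome 18 had 1849 tags at 4.12 and 2748 at 3.24.

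**Figure D5:**
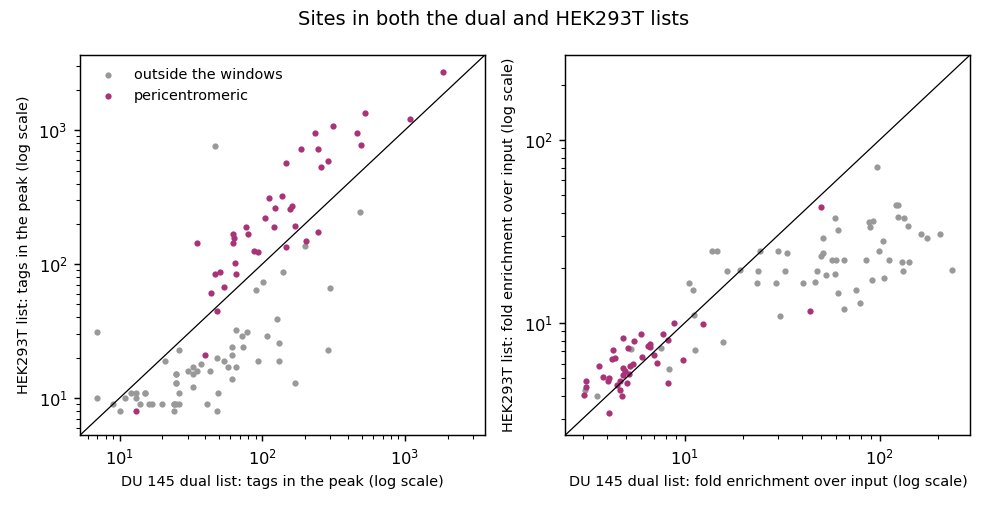
Tags (left) and fold enrichment over input (right) in the HEK293T list (y axes, log scale) against the DU 145 dual list (x axes, log scale) at sites in both, with the line of equal values; purple points are the 40 pericentromeric sites and grey points the 61 outside. Near the gaps 34 of 40 sites lie above the line for tags, and outside 3 of 61 do.

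The shared sites without a repeat period were mixed. At chr21:9827002-9827634 the dual peak had 247 tags at 4.25, and the HEK293T peak, with fewer tags, had a fold enrichment of 6.37. The neighbouring dual peaks chr16:33963441-33963790 and chr16:33963816-33964169 had 63 tags at 6 and 80 at 7.74, and 1 HEK293T peak with 167 tags at 8.72 overlapped both. These were high in tags and low in fold enrichment. The intergenic site at chr1:119552867-119552990 was in all 3 lists, with 10, 13 and 8 tags and fold enrichments of 8.04, 43.82 and 11.69, in the order formaldehyde, dual and HEK293T. Its FDR in that order was 18.64, 1.8 and 31.76%.

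In DU 145 alone, the site at chr12:32096870-32096921, in an intron of LINC02422, had 7 formaldehyde and 11 dual tags at 43.43 and 43.82. The site at chr1:120176747-120176800, in an intron of the zinc finger gene ZNF697, had 8 and 11 tags at 43.43 and 43.42. The site at chr11:55277554-55277615, in an exon of the olfactory receptor pseudogene OR4C1P, had 9 and 18 tags at 32.9 and 40.97. These sites had few tags, and high fold enrichment in both DU 145 lists. Their FDR in the same order was 9.92, 12.52 and 6.56% in the formaldehyde list and 0.84, 0.83 and 0% in the dual list. A further site of both DU 145 lists, chr20:23541648-23541742, had 11 and 19 tags at 22.84 and 22.67, and the 50 bases at its dual summit occurred 13 times in hg19. The formaldehyde and HEK293T lists shared chr5:46357735-46357947, an alpha-satellite-like site with 38 and 35 tags at 6.92 and 5.92. They also shared chr1:145277329-145277535, in introns of overlapping gene models of NBPF10 and of the NOTCH2NL genes, with 16 and 26 tags at 12.11 and 8.06. The FDR was 18.15 and 31.94% at the chr5 site and 18.76 and 32.18% at the chr1 site.

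By position, members lay away from genes in the lists with many arrays. The summit was intergenic in 89.3% of HEK293T, 72.4% of dual and 46.9% of formaldehyde members, against 34.1, 36.2 and 33.6% of the other autosomal peaks. It was in an intron in 9.45, 22.0 and 48.3%, against 43.9, 56.0 and 62.2% of the others. It was in an exon in 1.24, 5.69 and 4.90%, against 22.0, 7.73 and 4.24%. The gene model with most members was the long non-coding RNA gene ENSG00000291065 on chromosome 10, whose intron spans the pentamer array with 21 HEK293T and 4 dual peaks at fold enrichments of 4.11 to 9.92.

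Of the 5 HEK293T members in exons, 2 lay in RPL23A, a ribosomal protein gene, with 11 and 9 tags at 13.81 and 16.57. The others were in OR5L1, an olfactory receptor gene (9 tags, 13.81), and the pseudogenes DUX4L50 (29 tags, 5.84) and RPS2P46 (9 tags, 17.43). On chromosome 20, which led the formaldehyde list, all 15 members had 6 to 11 tags. Their fold enrichments ran from 4.39 in an intron of ASXL1, a Polycomb-associated chromatin regulator, to 39.37 in an exon of PXMP4. Introns of DUSP15 (37.22), of TPX2, a spindle assembly factor (8.6), and of KIF3B, a kinesin motor (6.19), also held members. The FDR of the 15 ran from 9.33 to 27.84%.

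Reads of 50 bases can match more than 1 place in a genome with repeats. The 50 bases at the summit occurred more than once in hg19 at 26.4% of HEK293T, 14.6% of dual and 10.5% of formaldehyde members, and at 13.6, 8 and 2.84% of the other autosomal peaks. Among the members with a 5-base period these shares were 13.6% in HEK293T and 5.88% in the dual list, with at most 20 copies, and among those with the alpha-length period in HEK293T 37.5%, with up to 48. Among the members with neither period they were 47.1% in HEK293T, with up to 351 copies, and 22.1% in the dual list. The count covers exact copies in hg19, while reads were mapped with 2 mismatches and the assembly holds only part of the satellite arrays. It therefore cannot rank the classes by how many places a read can match. How reads that mapped to several places were handled is not given in the sources used here, and its part in the tag counts was not tested.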

How the data were processed

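One UCHL1 ChIP library and 1 input library were sequenced for each of 3 conditions on the SOLiD platform. Per the study's methods, 50-base reads were mapped by the authors to hg19 with Lifescope 2.5.1, allowing 2 mismatches, and peaks were called against the input with MACS (1.4.2 in the submitters' processing notes; p threshold 1e-05, mfold 10 to 30). The deposited lists give, for each peak, the tag count, a score, the fold enrichment against the local input background and the FDR in percent. The score column had lost its name and was read as the MACS score. No total read counts, input tags or replicates were used here, so no test was run.

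Distances, periods and motifs were computed in the GRCh37 genome with Python 3.11.15, numpy 2.4.6, scipy 1.17.1 and pysam 0.24.0. Tiles of 2000 and 200 bases with at most 50% N gave the background. Annotation is that of GENCODE, lifted to this build, at the summit. Scripts were tested on simulated data. The members and lists were chosen with earlier results of these data known. Named peaks were, per list, the 8 highest in fold enrichment, the 5 with most tags, the 5 longest, the 3 nearest to a gap, those in another list, and those with an FDR of 5% or less or on the fullest chromosome where at most 15. Not each is printed, and some sequences and 1 site are not reported here; those with the telomeric repeat, the HEK293T peaks in exons, the top HEK293T scores and the period classes were chosen after their values were seen. Alternatives are given at the end.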

Additional observations from a re-analysis of the deposited data

How the results depend on the processing

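Of 124 values computed under alternatives, 64 stayed within the 95% interval of the value reported and 60 did not; the cause was not tested unless the alternative's own construction gives it. No value has a test and none changed sign, but the order of the lists changed for some measures. The order of the 3 lists in the pericentromeric share, lowest in the formaldehyde list and highest in HEK293T, was the same under every alternative run for it. No paired analysis was possible because each group has 1 sample. Values follow in the order formaldehyde, dual and HEK293T where 3 are given. The share was 1.98, 5.89 and 16.2% at 1 Mb from the gap edge, where the windows hold 1.42% of readable bases, and 9.09, 12.3 and 22.6% at 5 Mb, where they hold 7.07%. It was 7.55% of the formaldehyde (4 of 53) and 37.8% of the HEK293T peaks at an FDR of 5% or less. At a score of at least 100 it was 4.43, 7.90 and 42.3%. For HEK293T it was 14.4% with peaks within 1 kb merged and 16.2% without chromosome 10. Without the 9 fullest blocks, an alternative chosen after seeing the data, it was 5.89% in the dual and 10.0% in the HEK293T list.

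The median fold enrichment was 6.05 in the dual list at 1 Mb, and 12.2 in the dual and 6.95 in the HEK293T list at 5 Mb. At an FDR of 5% or less it was 5.91 (4 peaks), 8.29 and 6.20, so that the formaldehyde list went from highest to lowest, and it was 32.4, 22.7 and 6.03 at a score of at least 100. In HEK293T it was 7.45 with peaks merged. Without the 9 blocks it was 12.1, 14.7 and 7.86, with the dual list highest. At 1 Mb the dual value lay below that of HEK293T, 6.43. Tags in its place had medians of 7, 29 and 89.5, in the opposite order. The share overlapped by any other list, 5.59, 35.8 and 10.7%, was 46.7% in the dual list at 1 Mb. At an FDR of 5% or less, where partners too had to pass, it was 25 (1 of 4), 21.3 and 11.8%, with the formaldehyde list highest in place of the dual list. At a score of at least 100 it was 18.8% (3 of 16) and 7.78% in the formaldehyde and HEK293T lists, and without the 9 blocks 5.63, 16.7 and 5.52%, both with HEK293T lowest in place of the formaldehyde list.

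The share with 60% identity at a shift of 1 alpha satellite unit (2, 28 and 137 members) was 36% in the dual list at 1 Mb. In the formaldehyde list it was 0% at an FDR of 5% or less, 0% at a score of at least 100 and 0% at 70% identity. In the dual list it was 13.0% (3 of 23) at that score and 3.25% at 70% identity. In HEK293T it was 44.1% at that FDR, 44.4% at that score, 27.6% with peaks merged, 40.3% in a 1 kb window and 3.48% at 70% identity. Without windows of a 5-base period, also chosen after seeing the data, it was 1.63% in the dual and 5.72% in the HEK293T list, because such arrays match at 170 bases. The 5-base period and its alternatives were all chosen after seeing the data. Its share was 0% in the formaldehyde list at 60% identity, by at least 5 pentamers, at 1 Mb and at an FDR of 5% or less. It was 64 and 62.3% in the dual and HEK293T lists at 1 Mb and 32.5 and 49.9% at 5 Mb. In HEK293T it was 76.5% at that FDR and 36.6% with peaks merged, since merging joins peaks of 1 array; at 1 Mb and when merged (dual 40.4%) the dual list was the higher of these. The formaldehyde share of tags, 16.1%, was 5.98% without the 4 neighbouring chromosome 8 peaks, a value added after seeing the data.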

Other observations

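A small group of members had a strongest period of neither 5 bases nor the alpha satellite length, with at least 50% identity. In the HEK293T list these were 10 members (2.49%) with periods of 15, 26, 48 or 49 bases, such as chr2:91596542-91598522 with 677 tags at a fold enrichment of 3.1 and a period of 49 bases. In the dual list they were 5 (4.07%), among them chr10:42393551-42395121 with 859 tags at 3.49 and chr10:42596688-42597276 with 467 at 2.7, both with a period of 26 bases. In the formaldehyde list they were 5 (3.50%), the 4 neighbours on chromosome 8 with a period of 42 bases and chr1:142854891-142854995 with 15 tags at 10.83 and a period of 48 bases. Polypurine runs were counted at a length of at least 30 bases with at least 20% G (or C on the other strand). They were at 5 formaldehyde (3.50%), 6 dual (4.88%) and 2 HEK293T members (0.498%). Of the other autosomal peaks 2.92, 9.64 and 0.493% held them, and of window tiles of 200 bases 0.596%.

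Outside the windows, 9 HEK293T peaks had a 5-base period, with a median of 88 tags at a fold enrichment of 6.03 and 18 pentamers in 200 bases, values near those of the members with this period. The 10 dual peaks of that kind had a median of 18 tags at 35.9. Their median was 0.5 pentamers in 200 bases, so most of them were not arrays of ATTCC or GGAAT.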
